A study of Mus musculus with 6 samples.

Results

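The histone genes read in mouse platelet RNA were taken by symbol, as every row that begins with Hist1h to Hist4h, H1f, H2af or H3f, which gave 84 of 24346 symbols. Of these, 68 carry a cluster name (Hist1 to Hist4) and 16 carry the name of a replacement variant. The naming rule reads symbols only. The family itself was selected on measured values, the FPKM of these libraries in knock-in against wild-type platelets, so the counts and tests below are a description of these libraries and no independent evidence of a direction.

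RNA was sequenced from blood platelets of wild-type mice and of mice homozygous for the β3(R734C) knock-in, an amino acid substitution in the tail of integrin β3 inside the cell, with 3 libraries in each group. The study asked which platelet mRNAs differ in these mice, whose platelets it describes as large and few. No treatment, strain, age or sex is given in the labels, nor whether the libraries of a group came from separate animals, so p-values measure only the spread between these libraries, which may be technical.

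Histones package DNA into nucleosomes: H2A, H2B, H3 and H4 form the core, and H1 binds the linker. The cluster genes are made in bulk when DNA is replicated, and most of their mRNAs end in a short stem-loop, bound by the protein SLBP, in place of a poly(A) tail. Replacement variants such as H3.3 and H2A.Z are made outside replication from polyadenylated, mostly spliced mRNAs. Several cluster genes also give a longer polyadenylated mRNA, known from cells that have stopped dividing. Platelets have no nucleus and receive their mRNA from megakaryocytes.

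The stem-loop is shown here because it separates the 2 classes of histone mRNA in the reference. A stem-loop was taken as 16 bases on the transcript strand: a left arm GGNNNT of 6 bases, a loop TNTN of 4, and a right arm complementary to the left. It was found in GENCODE M21 transcripts (GRCm38) of 46 of 67 protein-coding cluster symbols, 1 of 15 replacement symbols and 69 of 21877 protein-coding symbols in all (0.315%). The lines below give it for the most abundant cluster genes and those that rose, where it is annotated, and for H2afx, with the stem-loop in capitals and flanking bases in lower case, 5′ to 3′ as DNA letters.
Hist1h1c: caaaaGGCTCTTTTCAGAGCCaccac
Hist1h2ac: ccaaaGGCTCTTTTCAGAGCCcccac
Hist1h2be: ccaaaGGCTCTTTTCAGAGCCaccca
Hist3h2a: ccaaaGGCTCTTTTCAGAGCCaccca
Hist1h4c: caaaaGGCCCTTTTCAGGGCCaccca
Hist1h4h: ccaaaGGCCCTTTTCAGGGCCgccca
Hist1h4i: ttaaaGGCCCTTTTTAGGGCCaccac
Hist1h4m: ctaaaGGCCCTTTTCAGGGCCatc
H2afx: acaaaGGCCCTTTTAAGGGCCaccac
The form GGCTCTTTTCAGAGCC was shared by 26 cluster symbols, none of them an H4 gene. The form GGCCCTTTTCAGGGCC was shared by 7, all of them H4 genes. H2afx, which encodes the DNA-damage-responsive variant H2A.X, was the replacement symbol with a stem-loop.

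Most histone symbols were low or absent. Of the 68 cluster symbols, 18 were listed at 0 in every library and 27 were above 0 with a mean under 1 FPKM (fragments scaled to transcript length and library size). How library size was set is not given in the sources used here. The other 23 reached the mean of at least 1 FPKM that was needed for testing. The member just inside that limit was Hist1h2bb, with a mean of 1.06 FPKM, and the member just outside was Hist1h2ag, with 0.913 FPKM. Among the 23, 4 (Hist1h2ak, Hist1h2bl, Hist1h2bp and Hist1h2ab) had a wild-type mean under 1 FPKM and so passed through their knock-in values, and 1 had a knock-in mean under 1. Of the 16 replacement symbols, 6 were at 0 in every library, 3 lay under the limit and 7 were tested.

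From the spacing of low values, relative depth was 0.882 to 1.05 of that of wild-type library 1, and absolute depth was not estimated. All 12 platelet markers exceeded a mean of 1 FPKM, and they summed to 54332 to 56565 FPKM in wild-type platelets against 50116 to 55597 FPKM. Of these, Tubb1, Itgb3 (the integrin β3 gene, which carries the knock-in) and Gp1ba fell and 0 rose (limma). Over all tested genes 3.99% fell and 4.36% rose. Without Pf4 the sums were 36571 to 37637 and 29820 to 32461 FPKM, which do not overlap, as for 15.8% of single tested genes in this direction. The part of these markers in the histone results was not tested. The neutrophil list summed to 0.352 to 2.35 FPKM in wild-type platelets and 0.936 to 2.08 in knock-in platelets, with Camp, Elane and Mpo at 0. The monocyte list reached 7034 to 8241 and 7205 to 9128 FPKM through Lyz2, and its other genes summed to 0.478 to 1.12. The T and NK cell list summed to 2.67 to 4.42 and 5.06 to 8.83 FPKM, mostly Nkg7, with 6 of 11 genes at 0, Cd3e among them. The B cell list summed to 0.185, 0 and 0 FPKM in wild-type platelets and 0.685, 0.196 and 0.693 in knock-in platelets, with 4 of 7 genes at 0. Both lymphoid sums were higher in every knock-in library than in every wild-type library, the B cell sum narrowly and near 0. The same held for 14.9% of single tested genes. The part of both lymphoid lists in the results was not tested. Haemoglobin chains took 5.71% to 12.8% of total FPKM in wild-type platelets and 3.20% to 20.4% in knock-in platelets, highest in library 1 of each group. Total FPKM was 641278 to 708432 in wild-type platelets and 758381 to 856863 in knock-in platelets.

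Cluster histone mRNA was higher in knock-in platelets. Of 23 cluster genes tested, 9 rose, 0 fell and 14 did not pass, where 8.36% of all 4859 tested genes passed, 4.36% as higher and 3.99% as lower (limma, adjusted p under 0.05). Their median log2 fold change was 0.55, beside -0.014 over all tested genes, and 21 of the 23 estimates lay above 0. In 12 of the 23, every knock-in library exceeded every wild-type library, and in none the reverse. Of these 12, Hist1h2ak, Hist1h2bl and Hist1h2bp had reached the testing limit only through their knock-in values. Below that limit, Hist2h2ac and Hist2h2aa2 were lower in every knock-in library than in every wild-type library, both near 0. Hist2h2ac measured 0.782, 1.11 and 0.766 FPKM in wild-type platelets and 0.443, 0 and 0 in knock-in platelets. Hist2h2aa2 measured 1.85, 0.000304 and 0.000233 FPKM against 0.000231, 0.000214 and 0.000215. Of the 50-base stretches of Hist2h2aa2, 100% occur in other genes. No untested cluster symbol was higher in every knock-in library. Of all tested genes, 30.7% had groups that did not overlap, 14.9% with the knock-in higher. The 9 were the H2B genes Hist1h2bc, Hist1h2be and Hist1h2bn, the H4 genes Hist1h4i, Hist1h4c and Hist1h4h, and the H2A genes Hist3h2a, Hist1h2ac and Hist1h2ak.

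**Figure D1:**
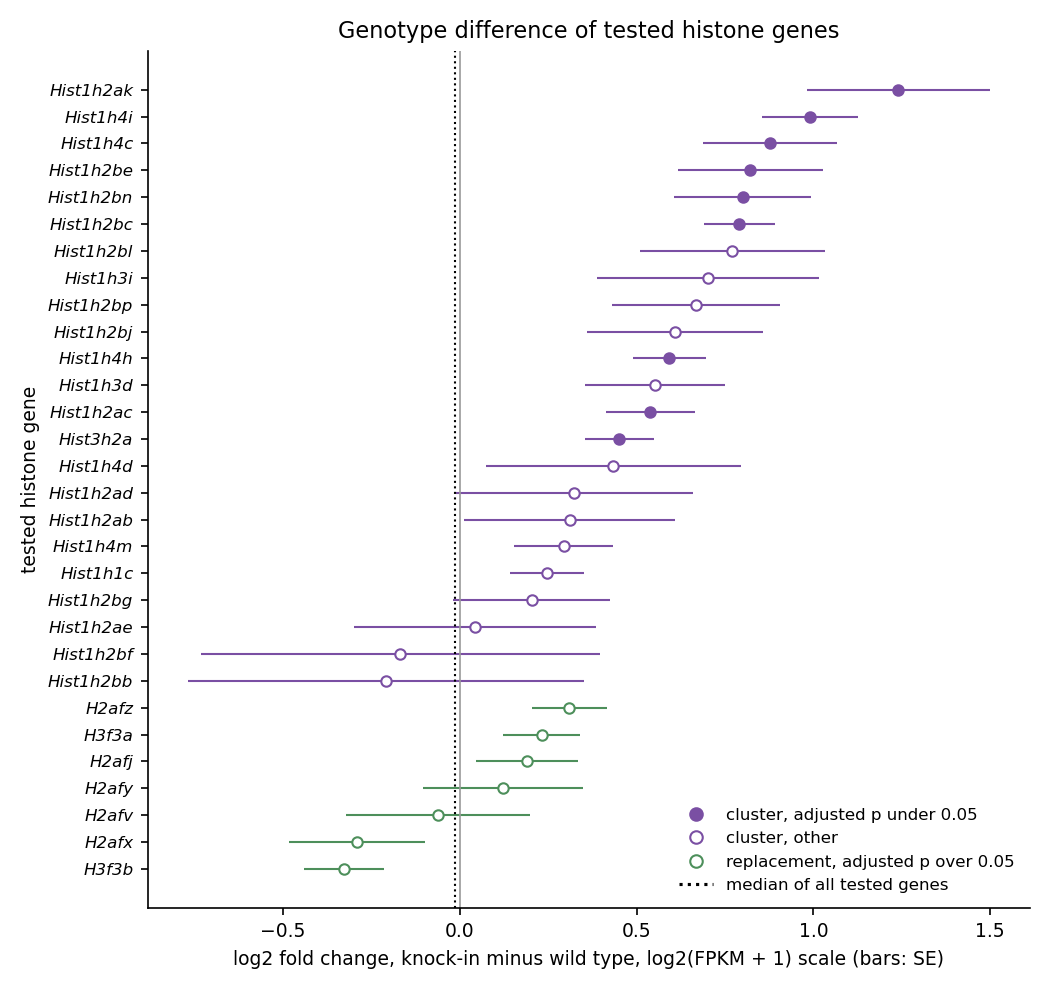
Log2 fold change of each tested histone gene, knock-in minus wild type on the log2(FPKM + 1) scale, with its standard error (n = 3 libraries per group). Filled points passed limma at an adjusted p of 0.05. The 9 filled points are all cluster genes and lie between 0.45 and 1.24, while the 7 replacement genes lie between -0.33 and 0.31; the dotted line is the median of all 4859 tested genes.

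The number of cluster genes called moved with the libraries and settings, always with 0 falls. Leaving out wild-type library 1 gave 5, wild-type library 2 gave 2 and wild-type library 3 gave 3. Leaving out knock-in library 1 gave 11, knock-in library 2 gave 2 and knock-in library 3 gave 0, with 13 at an unadjusted p under 0.05 in limma. With a limit of 5 FPKM, 8 of 14 cluster genes passed. The count was 3 without a filter on low values, 5 with quantile normalization and 0 without the variance trend (12 at an unadjusted p under 0.05 in limma). Rescaling to equal totals lowered the median of all tested genes to -0.23 and changed the calls over all genes from 212 higher and 194 lower to 51 and 484. The cluster median was then 0.30, and Hist1h2bc, Hist1h4i and Hist1h2ak passed. Tested cluster genes are short, with a median annotated length of 572 bases against 1749 over all tested genes, and tested genes under 1000 bases had a median log2 fold change of 0.13 against -0.058 for the longer. With the length trend removed, 6 of the 9 still passed: Hist1h2bc, Hist1h4i, Hist1h4c, Hist1h2be, Hist1h2ac and Hist3h2a.

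The calls differed in how often an alternative ended them. Of 20 alternatives, 2 ended the call of Hist1h2bc and 2 that of Hist1h4i, against 6 for Hist1h4h, 7 for Hist1h4c, 9 for Hist3h2a, 10 for Hist1h2ac, 10 for Hist1h2bn and 11 for Hist1h2be. For Hist1h2ak it was 9 of 19. The highest limma adjusted p was 0.183 for Hist1h4h, 0.113 for Hist1h4c, 0.408 for Hist3h2a, 0.327 for Hist1h2ac, 0.151 for Hist1h2bn, 0.152 for Hist1h2be and 0.0988 for Hist1h2ak. The lowest log2 fold change of Hist3h2a was 0.19. Every one of these values stayed above 0.

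Hist1h2bc, an H2B gene on chromosome 13 (GRCm38, 23684199 to 23692908, plus strand, 2 exons), was by far the most abundant histone mRNA. It measured 4398, 3744 and 4024 FPKM in wild-type libraries 1 to 3 and 6360, 7003 and 7705 FPKM in knock-in libraries 1 to 3. The groups were well apart, with means of 4056 ± 328 and 7022 ± 673 FPKM (SD, n = 3 each), a 1.73-fold rise (log2 fold change 0.79, SE 0.10, limma adjusted p = 0.00759). This gene alone made up 62.1% to 66.7% of summed cluster FPKM in wild-type platelets and 67.1% to 70.3% in knock-in platelets. Of its 50-base words, 30.1% also occur in other genes, chiefly Hist1h2bg, so part of its fragments could be assigned elsewhere. The call was lost without the variance trend (limma adjusted p = 0.0651) and without knock-in library 3 (0.0507), and over all 20 alternatives adjusted p ran from 0.000191 to 0.0651.

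Hist1h2bn, a smaller H2B gene at chromosome 13, 21754123 to 21754503, plus strand, measured 74.9, 71.4 and 71.1 FPKM in wild-type platelets and 93.7, 170 and 128 in knock-in platelets. The wild-type libraries lay close together and the knock-in libraries spread widely above them (log2 fold change 0.80, SE 0.19, limma adjusted p = 0.0413). Of its 50-base words 86.4% occur in other genes, chiefly Hist1h2bk, Hist1h2bq and Hist1h2br. Hist1h2be gave 26.4, 25.7 and 16.6 FPKM in wild-type platelets against 35.4, 38.9 and 48.1 (log2 fold change 0.82, SE 0.20, limma adjusted p = 0.0454). Its annotation (chromosome 13, 23583670 to 23621124, minus strand) shares exons with Hist1h1e, so fragments from both genes cannot be fully separated. Hist1h2bj, the next H2B gene by level, had group means of 12.4 ± 3.80 and 19.1 ± 3.64 FPKM (SD, n = 3) and missed the threshold (limma adjusted p = 0.171).

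H4 pairs with H3 at the centre of the nucleosome, and its mRNA came mainly from 4 genes. Hist1h4i (chromosome 13, 22040636 to 22041362, minus strand) measured 159, 193 and 190 FPKM in wild-type platelets and 301, 383 and 401 in knock-in platelets. Every knock-in value was well above the wild-type range, and the rise was 1.99-fold (log2 fold change 0.99, SE 0.14, limma adjusted p = 0.00846). Hist1h4c (23697635 to 23698454, minus strand) measured 226, 159 and 149 FPKM against 258, 363 and 356. Its wild-type library 1 and knock-in library 1 came nearest to each other, and the rise was 1.84-fold (log2 fold change 0.88, SE 0.19, limma adjusted p = 0.0273).

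Hist1h4h (chromosome 13, 23531050 to 23531519, plus strand) rose from 84.3, 90.1 and 97.9 FPKM to 135, 145 and 132 (log2 fold change 0.59, SE 0.10, limma adjusted p = 0.0146). Both groups were tight, and they did not overlap. Of the 50-base words of Hist1h4h, 45.8% occur in other genes, chiefly Hist1h4j, Hist1h4a and Hist1h4b. Hist1h4m, the most abundant H4 gene (21811746 to 21812147, plus strand), measured 732, 761 and 816 FPKM in wild-type platelets and 750, 1066 and 1047 in knock-in platelets. Knock-in library 1 lay inside the wild-type range, and the difference did not pass limma (log2 fold change 0.29, SE 0.14, adjusted p = 0.232). Without knock-in library 1 Hist1h4m passed, at 0.46 on the log2 scale (limma adjusted p = 0.0111; 0.00603 to 0.934 over the alternatives). Of its 50-base words 89.8% occur in other genes, chiefly Hist1h4n and Hist1h4i, so its level is the least certain of the 4. For Hist1h4i and Hist1h4c the share was 28.9% and 19.6%.

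Among the H4 genes, Hist1h4m was 60.8% to 64.8% of H4 FPKM in wild-type platelets and 51.8% to 54.3% in knock-in platelets. Hist1h4i averaged 14.8% of H4 FPKM in wild-type and 20.3% in knock-in libraries. The ratio of Hist1h4i to Hist1h4m was 0.218, 0.254 and 0.233 in wild-type libraries and 0.401, 0.360 and 0.383 in knock-in libraries. No scaling of a library can move this ratio. Hist1h4m did not pass on its own, the 2 genes share sequence, and the pair was picked after its values were seen, so the ratio is a description and the part of read assignment in it was not tested.

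Of 6 cluster H2A genes tested, 3 rose. Hist3h2a, at chromosome 11, 58954685 to 58956830, plus strand, measured 140, 125 and 143 FPKM in wild-type platelets and 179, 191 and 187 in knock-in platelets. The groups did not overlap (1.37-fold, log2 fold change 0.45, SE 0.10, limma adjusted p = 0.0275), and its exon overlaps one of Trim17. Hist1h2ac (chromosome 13, 23681467 to 23683948, minus strand) measured 88.3, 118 and 112 FPKM against 152, 155 and 153. The knock-in libraries agreed closely here and lay above all 3 wild-type values (1.45-fold, log2 fold change 0.54, SE 0.13, limma adjusted p = 0.0364).

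Hist1h2ak (chromosome 13, 21753435 to 21753827, minus strand) was very low, and it is one of the 4 genes that reached the testing limit only through their knock-in values, so its difference was favoured by that limit. It measured 0.623, 0.295 and 0.610 FPKM in wild-type platelets and 3.18, 2.49 and 2.07 FPKM in knock-in platelets (log2 fold change 1.24, SE 0.26, limma adjusted p = 0.0245). Adjusted for relative depth, these values were whole multiples of a step of 0.310 FPKM within 0.0409 of a step, namely 2, 1 and 2 steps against 9, 8 and 7. The call thus rests on few fragments, and 52.3% of the gene's 50-base words occur in other genes.

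Linker histone mRNA was almost entirely Hist1h1c, the H1.2 gene (chromosome 13, 23738808 to 23740367, plus strand). It measured 618, 676 and 601 FPKM in wild-type platelets and 665, 837 and 754 in knock-in platelets. Knock-in library 1 fell within the wild-type range, and the difference did not pass limma (log2 fold change 0.25, SE 0.11, adjusted p = 0.187). It passed without knock-in library 1 (log2 fold change 0.33, limma adjusted p = 0.0496; 0.0464 to 0.953 over the alternatives). The ratio of Hist1h2bc to Hist1h1c was 5.54 to 7.12 in wild-type platelets and 8.37 to 10.2 in knock-in platelets, without overlap. This pair was also picked after its values were seen, and its ratio was not tested.

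Cluster H3 mRNA was scarce. Its most abundant gene, Hist1h3d, measured 14.5, 12.4 and 14.2 FPKM in wild-type platelets and 26.9, 16.5 and 19.3 in knock-in platelets. The groups did not overlap, but the difference did not pass limma (log2 fold change 0.55, adjusted p = 0.123). Hist1h2bl and Hist1h2bp, 2 H2B genes, had wild-type means of 0.886 and 0.949 FPKM and knock-in values of 1.54 to 3.01 and 1.86 to 2.43 FPKM, and did not pass (limma adjusted p = 0.109 and 0.123). Both reached the testing limit only through their knock-in values, which favours groups that do not overlap.

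**Figure D2:**
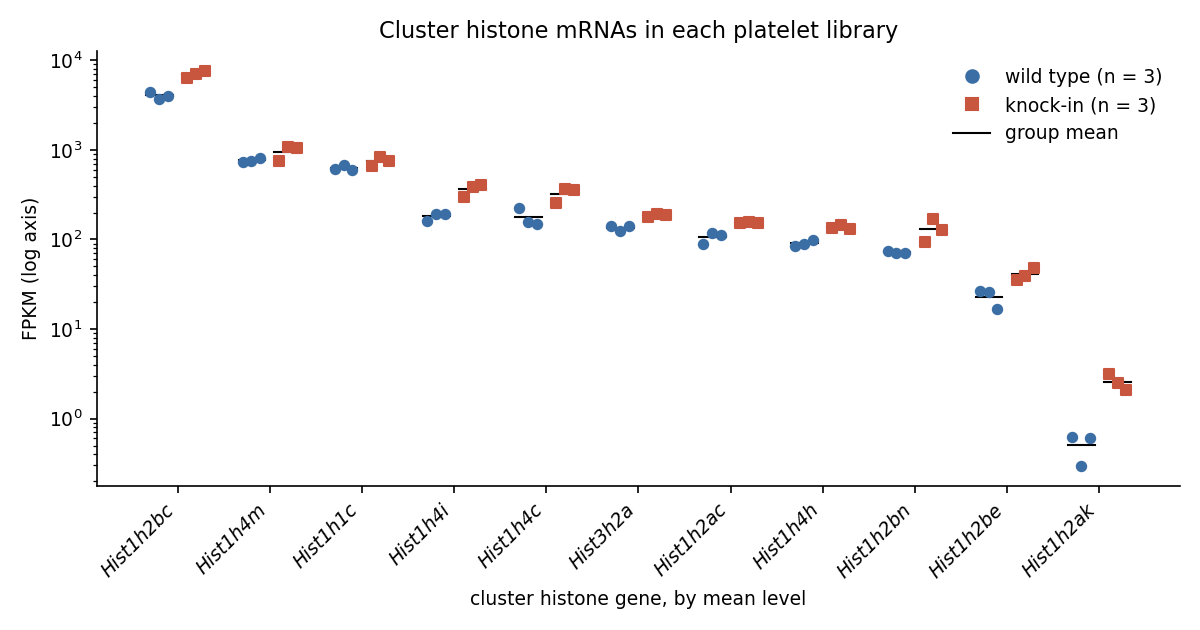
FPKM on a log axis in each library for the cluster genes that rose and the 6 most abundant, ordered by mean. Points are libraries (circles wild type, squares knock-in, n = 3 each) and lines are group means; knock-in squares stand above all wild-type circles except for Hist1h4m and Hist1h1c, where knock-in library 1 (750 and 665 FPKM) lies within the wild-type range.

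Calls lay mostly among the abundant cluster genes. Of 9 tested cluster genes with a mean of at least 100 FPKM, 7 rose, with a median SE of 0.13 on the log2 scale. Of 4 between 10 and 100 FPKM, 1 rose, with a median SE of 0.23. Of 10 under 10 FPKM, 1 rose, with a median SE of 0.32. The median log2 fold change in these bands was 0.59, 0.65 and 0.32.

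The annotated 3′ end differed among the abundant cluster genes. SMART-Seq cDNA synthesis starts from poly(A) tails, and mRNAs that end at the stem-loop lack one. In GENCODE, 23 cluster symbols have a transcript that runs more than 100 bases past the stem-loop, 23 end near it, 12 are annotated without UTR and 10 have a UTR but no stem-loop. Of the 9 genes above 100 FPKM, 5 were in the first set: Hist1h1c (840 bases past), Hist1h2ac (2010), Hist1h4c (454), Hist1h4i (330) and Hist3h2a (1643). Hist1h4m and Hist1h4h end 3 and 46 bases after it, Hist1h2bn is annotated as coding sequence, and Hist1h2bc is annotated as a spliced transcript of 1156 bases without the stem-loop. Of the 23 long symbols, 10 were tested, 7 had a mean of at least 10 FPKM, and the median mean was 0.324 FPKM. Of the 23 that end near the stem-loop, 8 were tested, 3 had a mean of at least 10 FPKM, and the median mean was 0.393 FPKM. Both medians lie under the testing limit, and 5 of each set were at 0. Which 3′ ends the platelet mRNAs carry was not tested. FPKM of such short genes depends on the annotated length used by the authors, which is not given in the sources used here.

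Position within the loci varied as well. All but 1 of the 9 genes that rose lie in the Hist1 locus on chromosome 13, which holds 54 of the 68 symbols. That locus also holds 22 of the 23 tested cluster genes, so the calls are no more concentrated there than the tests. The Hist2 locus summed to at most 3.83 FPKM in any library, and none of its genes was tested. GENCODE places 14 pairs of cluster genes head to head, under 1000 bases apart. Of these, 13 join an H2A with an H2B gene, with the pseudogene Hist3h2bb-ps counted as an H2B gene. In 4 pairs both genes were tested, and in 2 of these both rose. These are Hist1h2ac with Hist1h2bc and Hist1h2ak with Hist1h2bn, whose intergenic stretches are shown because each separates 2 genes that rose. Singly, 9 of the 23 tested cluster genes rose, and 4.36% of all tested genes. Hist1h2ak reached the testing limit only through its knock-in values, so the second pair was favoured by that limit. The ratio of Hist1h2bc to Hist1h2ac was 31.7 to 49.8 in wild-type platelets and 41.8 to 50.4 in knock-in platelets, so the 2 mRNAs differ widely in level and their ratio overlapped between the groups.

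Both stretches are from RefSeq (GRCm38.p6, plus strand), outside both transcripts, at chr13:23683960-23684198 for Hist1h2ac and Hist1h2bc and chr13:21753913-21754075 for Hist1h2ak and Hist1h2bn. Capitals mark the CCAAT box, the TATA box letters TATAAA and the octamer ATTTGCAT, on either strand.
Hist1h2ac and Hist1h2bc: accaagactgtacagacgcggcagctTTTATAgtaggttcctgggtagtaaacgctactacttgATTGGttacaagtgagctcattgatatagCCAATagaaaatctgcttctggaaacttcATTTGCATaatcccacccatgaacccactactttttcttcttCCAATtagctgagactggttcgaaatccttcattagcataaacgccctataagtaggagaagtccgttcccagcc
Hist1h2ak and Hist1h2bn: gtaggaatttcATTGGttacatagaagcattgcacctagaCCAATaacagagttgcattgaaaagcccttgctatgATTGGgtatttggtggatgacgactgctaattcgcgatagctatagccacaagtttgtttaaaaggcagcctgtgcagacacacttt
The first stretch holds 3 CCAAT boxes, 1 TATA box match and 1 octamer, and the second holds 3 CCAAT boxes and neither of the others. The 250 bases before the start of Hist1h2bn do hold a TATA box match, which lies outside the printed stretch. In the 250 bases before the start, CCAAT on either strand was found in 50 of 61 matched cluster genes (82.0%) against 34.5% of all genes. TATAAA was found in 47.5% of cluster genes against 13.0%, and the octamer in 21.3% against 1.61%. Among the 8 matched genes that rose, 6 held CCAAT, 3 held TATAAA and 2 the octamer, and the replacement genes held CCAAT in 8 of 13. Hist1h2bc, the most abundant gene that rose, had no matched promoter and is not in these counts. These matches describe letters and do not show binding.

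None of the tested replacement variants passed. Of 7 tested, 0 rose and 0 fell by limma (2 at an unadjusted p under 0.05), beside the 4.36% and 3.99% of all genes, and their median log2 fold change was 0.12. H3f3a (chromosome 1, 180800832 to 180813943, minus strand), which with H3f3b encodes histone H3.3, measured 768, 599 and 615 FPKM in wild-type platelets and 747, 795 and 771 in knock-in platelets. Wild-type library 1 overlapped the knock-in values, and the difference did not pass limma (log2 fold change 0.23, SE 0.11, adjusted p = 0.231). Its sign turned to -0.033 with equal totals, where the median of all genes was -0.23. Without library 1 of both groups it passed as higher, at 0.37 (limma adjusted p = 0.0110; 0.0110 to 0.896 over the alternatives).

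H3f3b (chromosome 11, 116021912 to 116027962, minus strand) went the other way, at 293, 239 and 228 FPKM in wild-type platelets and 205, 204 and 192 in knock-in platelets. The groups did not overlap, as in 15.8% of all tested genes in this direction, but the difference did not pass limma (log2 fold change -0.33, SE 0.11, adjusted p = 0.113). With equal totals it passed as lower, at -0.59 (limma adjusted p = 0.0207, the lowest of its alternatives, which reached 0.274). The ratio of H3f3a to H3f3b within a library was 2.62, 2.50 and 2.69 in wild-type platelets and 3.63, 3.90 and 4.02 in knock-in platelets. The groups did not overlap in this ratio, which library scaling cannot move. Neither gene passed on its own, and the pair was compared after its values were seen, so the ratio is a description with no test.

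H2afz, the H2A.Z gene (chromosome 3, 137864487 to 137866922, plus strand), measured 124, 107 and 124 FPKM in wild-type platelets and 139, 155 and 146 in knock-in platelets. The knock-in values all lay above the wild type, as in 14.9% of all tested genes. The difference did not pass limma (log2 fold change 0.31, SE 0.11, adjusted p = 0.111). H2afj, which encodes H2A.J, had means of 31.4 ± 3.37 and 36.0 ± 4.37 FPKM (SD, n = 3; log2 fold change 0.19, or -0.067 with equal totals). H2afx measured 20.4, 14.4 and 23.4 FPKM in wild-type platelets and 15.2, 15.9 and 15.1 in knock-in platelets, with a wide wild-type spread and a difference that did not pass limma (log2 fold change -0.29, adjusted p = 0.397).

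The remaining variants were low. H2afv, the second H2A.Z gene, had means of 11.4 ± 2.41 and 11.1 ± 3.80 FPKM, and H2afy, a macroH2A gene, 5.60 ± 1.29 and 6.13 ± 0.973 (SD, n = 3), with log2 fold changes of -0.061 and 0.12. Both signs turned when some single libraries were left out. H1f0, a linker histone of non-dividing cells, was read at 1.30, 0.472 and 0 FPKM in wild-type platelets and 0.226, 0.199 and 0.614 in knock-in platelets and was too low to test. H1fx was above 0 in 5 libraries and the macroH2A gene H2afy2 in 1. H1fnt, H1foo, the pseudogene H2afy3 and H2afb1 to H2afb3 were listed at 0 throughout.

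Summed over all symbols, cluster genes came to 6599, 6026 and 6303 FPKM in wild-type platelets and 9040, 10438 and 10997 in knock-in platelets, with group means 1.61-fold apart. Replacement genes came to 1248, 1013 and 1042 FPKM against 1157, 1225 and 1180, with means 1.08-fold apart, and the groups overlapped. With equal totals the 2 ratios were 1.35 and 0.903, so the direction for the replacement sum depends on the scaling. The cluster share of all FPKM was 0.931% to 0.978% in wild-type platelets and 1.06% to 1.41% in knock-in platelets. The ratio of the cluster sum to the replacement sum, which needs no scaling, was 5.29, 5.95 and 6.05 in wild-type platelets and 7.81, 8.52 and 9.32 in knock-in platelets. Without Hist1h2bc the cluster sum was 2201 to 2282 and 2681 to 3435 FPKM, 1.39-fold apart by means. Total FPKM was itself 1.20-fold apart by means. As a share of total FPKM, the cluster sum without Hist1h2bc overlapped between the groups, with knock-in library 1 inside the wild-type range.

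**Figure D3:**
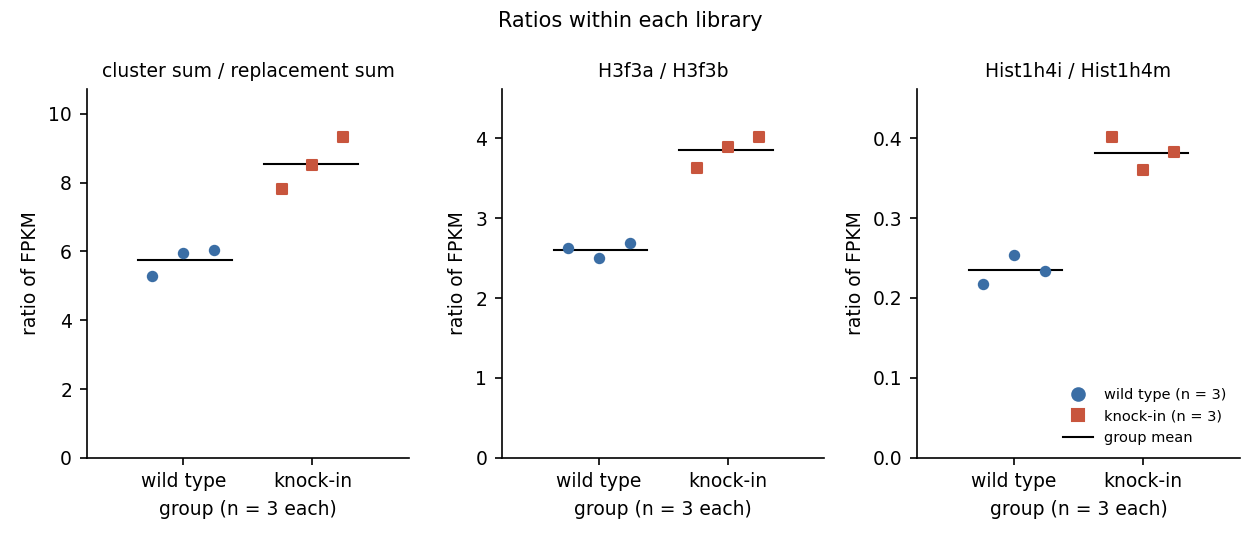
Ratios of FPKM formed within each library, from an axis at 0, with circles for wild-type and squares for knock-in libraries (n = 3 each) and lines for group means. In the panels for cluster to replacement sum, H3f3a to H3f3b and Hist1h4i to Hist1h4m, the knock-in libraries (lowest 7.81, 3.63 and 0.360) all lie above the wild-type libraries (highest 6.05, 2.69 and 0.254).

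The families differed in how their mRNA divided between the classes. H3 mRNA was nearly all from replacement genes, at 96.8% to 98.1% of H3 FPKM in wild-type platelets and 94.9% to 97.0% in knock-in platelets. For H2A the replacement share was 40.9% to 44.0% in wild-type platelets and 37.1% to 38.7% in knock-in platelets, with no overlap. For H1 it was at most 0.229%. H2B and H4 mRNA came from cluster symbols alone, since the naming rule holds no replacement form for them. By level the cluster families ranked H2B, H4, H1, H2A and H3, with wild-type means of 4179 ± 326, 1222 ± 31.7, 632 ± 39.3, 253 ± 16.1 and 23.4 ± 4.07 FPKM (SD, n = 3). The knock-in means were 7233 ± 693, 1783 ± 291, 752 ± 85.7, 352 ± 5.20 and 38.1 ± 11.5 FPKM, in the same order. The core histones sit in the nucleosome in equal number, and their summed mRNA levels per length were unequal.

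**Figure D4:**
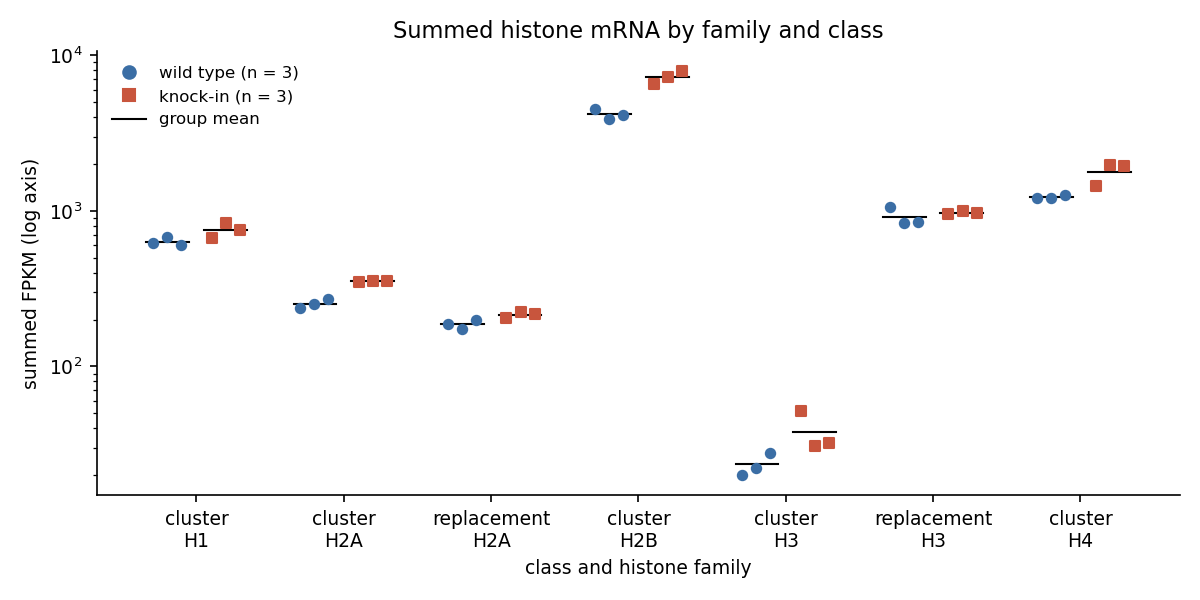
Summed FPKM on a log axis by histone family and class in each library (circles wild type, squares knock-in, n = 3 each, lines are group means). Cluster H2B is highest, with means of 4179 and 7233 FPKM, and H3 comes mainly from the replacement genes, with means of 914 and 971 FPKM against 23.4 and 38.1 for the cluster genes.

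Genes of dividing cells were low. The list of 25 cycling-cell genes summed to 7.24 to 10.5 FPKM in wild-type platelets and 5.77 to 14.9 in knock-in platelets, and 4 of them (Mcm3, Mcm5, Cdc6 and Cdt1) were at 0. Mki67 was 0.295 to 0.753 FPKM in wild-type platelets and 0.150 to 1.92 in knock-in platelets. Pcna, the replication clamp gene, was 3.85 to 5.60 FPKM in wild-type platelets and 1.11 to 2.45 in knock-in platelets. It lay below the wild type in 3 of 3 libraries, as did 15.8% of all tested genes. The difference did not pass limma (log2 fold change -0.92, adjusted p = 0.0766). Without Pcna the list summed to 3.39 to 4.93 FPKM in wild-type platelets and 3.44 to 13.8 in knock-in platelets, with overlapping groups. In knock-in library 1, with the most haemoglobin mRNA and the highest cycling-cell sum, Hist1h2bc, Hist1h4i, Hist1h4c and Hist1h4m were the lowest of the 3 knock-in values. Cluster H3 was the highest there, at a sum of 51.4 FPKM against 30.9 and 32.2, and so was Hist1h2ak at 3.18 FPKM. The part of other cells in these values was not tested. Without library 1 of both groups 10 cluster genes passed as higher and 0 as lower, of which 8 were among the 9, with Hist1h1c and Hist1h4m added and Hist1h2ak lost. In bulk samples fewer cells of a type and less RNA per cell cannot be told apart.

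Genes that process the 3′ end of histone mRNA were mostly low. Of 28 listed, 3 were at 0 in all libraries and 9 were tested; 0 rose and 1 fell, beside 4.36% and 3.99% of all tested genes, with a median log2 fold change of -0.089. The gene that fell was Eri1, which encodes the 3′ exoribonuclease that binds the histone stem-loop and trims or degrades histone mRNA. Eri1 measured 15.1, 18.4 and 28.4 FPKM in wild-type platelets and 8.41, 5.55 and 5.76 in knock-in platelets. The groups were well apart, 2.81-fold (log2 fold change -1.49, SE 0.26, limma adjusted p = 0.0139). The call was lost without wild-type library 2 (limma adjusted p = 0.0586), knock-in library 2 (0.0612) or knock-in library 3 (0.0676), without a filter (0.0621) and without the variance trend (0.0623); the range was 0.00251 to 0.0676. The link between Eri1 and histone mRNA was not tested.

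Slbp, the stem-loop binding protein gene, was read at 0.390, 0.370 and 0.382 FPKM in wild-type platelets and 0.516, 1.58 and 0.0616 in knock-in platelets, too low to test, and its knock-in values spread on both sides of the wild type. Lsm11, a core subunit of the U7 particle that cleaves histone pre-mRNA, was listed at 0 throughout. Its partner Lsm10 measured 6.69 to 9.89 FPKM in wild-type platelets and 7.74 to 11.3 in knock-in platelets, with no call. Zcchc6, a uridylyltransferase that acts on RNA 3′ ends, measured 8.93 to 12.2 and 7.82 to 11.6 FPKM, with overlapping groups.

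Of 28 histone chaperone genes, 12 were tested, and 0 rose and 0 fell by limma (2 at an unadjusted p under 0.05), beside 4.36% and 3.99% of all tested genes, with a median log2 fold change of 0.039. Nap1l1, which carries H2A and H2B, was the most abundant, at 61.7, 48.6 and 52.0 FPKM in wild-type platelets and 62.9, 82.5 and 76.7 in knock-in platelets. All knock-in values lay above the wild type, as in 2 of the 12 tested chaperone genes and 14.9% of all tested genes. The difference did not pass (log2 fold change 0.44). Npm1, for nucleophosmin, gave 0.350 ± 0.171 and 1.72 ± 0.740 FPKM (SD, n = 3) and missed the threshold in limma (log2 fold change 0.98, adjusted p = 0.0783). Npm1 reached the testing limit only through its knock-in values, so its difference was favoured by that limit. These 2 chaperone genes were singled out after their values were seen.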

How the data were processed

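The authors deposited FPKM values per gene symbol, 1 table per library, for 6 platelet libraries. Per the labels' protocols, RNA extraction used a miRNeasy Micro kit after TRIzol, and cDNA and libraries were made with SMART-Seq HT and Nextera XT, which do not mark strand. Per the submitters' processing notes, Cuffdiff 2.2.1, SAMtools 0.1.18, TopHat2 2.1.1 and Bowtie2 2.2.8 were used with mm10; settings and annotation are not given in the sources used here.

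Values were used unscaled. Symbols with a mean of at least 1 FPKM were tested with limma 3.58.1 (R 4.3.3) on log2(FPKM + 1), group as the only term, variance trend, two-sided, Benjamini-Hochberg over 4859 genes, threshold 0.05. Fold changes on this scale understate change of low genes. A comparison of single values in 3 against 3 libraries cannot reach an exact two-sided p below 0.1. The procedure was tested on simulated data. Replicates shared 0 identical values above 0.

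Genes named library by library were members that passed, the 6 most abundant cluster and 8 most abundant replacement genes, Eri1 and Slbp, and listed genes that passed; others named were chosen after their values were seen. Members and lists were chosen with earlier results of these data known. Lists were 28 present 3′-processing genes, 28 chaperones and 7 cell type marker sets. Transcript sequences and positions are from GENCODE M21 (GRCm38), and promoters from RefSeq matched through synonyms. Shared words were 50-base stretches found in another gene's transcripts.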

Additional observations from a re-analysis of the deposited data

How the results depend on the processing

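With 3 libraries a group, single libraries decided many calls. The 9 called cluster genes kept their direction in 179 of 179 values under alternatives and their call in 113. Rescaling to equal totals, removal of the length trend and leaving out library 1 of both groups were chosen after seeing the data. Calls over all genes (406) became 107 without a filter, 0 without the variance trend (1197 at an unadjusted p under 0.05 in limma) and 728 without library 1 of both groups, and ranged from 0 to 610 when a library was left out (0, with 994 at an unadjusted p under 0.05, without knock-in library 3). Cluster calls (9) became 3 without a filter, 5 with quantile normalization, 0 without the variance trend (12 unadjusted) and 3 with equal totals, and ranged from 0 to 11 when a library was left out. Replacement calls (0) became 1, lower, with equal totals and 1, higher, without library 1 of both groups, and stayed 0 to 0 when a library was left out. The 3′-processing calls (1) became 0 without a filter or the variance trend (2 unadjusted in each) and ranged from 0 to 2. Chaperone calls (0) became 1 with sample weights and 1 without library 1 of both groups, and ranged from 0 to 1.

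The cluster sum ratio of 1.61 was 1.35 with equal totals and 1.54 to 1.70 when a library was left out. The replacement ratio of 1.08 turned to 0.903 with equal totals and was 1.04 to 1.16 when a library was left out. Log2 fold changes that turned with equal totals were -0.017 for Hist1h1c, -0.033 for H3f3a, -0.067 for H2afj and -0.11 for H2afy. H2afy was -0.033 without library 1 of both groups and -0.024 to 0.26 when a library was left out, and H2afv -0.30 to 0.16. The ratio of cluster to replacement sum in the knock-in over that in the wild type was 1.48, and 1.42 to 1.55 when a library was left out.

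The shared replicate numbers did not meet the rule for pairs: deviations of same-numbered libraries correlated at 0.158, 0.0235 and 0.141, and 5 of 6 libraries correlated best with their own number. With the replicate block 306 genes passed in place of 406 and 7 cluster genes in place of 9, and the log2 fold changes were unchanged by construction. The 27 cluster symbols above 0 but under a mean of 1 FPKM were not tested, and absolute depth was not estimated.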

Other observations

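Histone symbols outside the naming rule were low. Cenpa, for the centromeric H3 variant, measured 1.29, 0.607 and 0.784 FPKM in wild-type platelets and 2.47, 1.16 and 0.152 in knock-in platelets, with overlapping groups (limma adjusted p = 0.882). Hils1 and H2bfm, a spermatid linker histone and an H2B-like gene, were listed at 0 in all 6 libraries.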
